A study of Mus musculus with 6 samples.

Results

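The genes described here encode the extracellular and cell surface proteins that hold back bone morphogenetic proteins (Bmps) and activins, in mouse epiblast-like cells (EpiLCs) with and without Smad2 and Smad3. The 9 members were chosen by symbol, out of 24288 gene symbols in the expression table, as Nog, Chrd, Grem1, Twsg1, Bmper, Fst, Fstl3, Fstl1 and Bambi. Where a symbol had several entries, the entry with the most reads was used. EpiLCs are embryonic stem cells (ESCs) that have been led out of the naive state into one that resembles the early post-implantation epiblast. ESCs kept in 2i + LIF, an inhibitor medium that holds the naive state, were plated on fibronectin and grown for 48 h in N2B27 with 20 ng/ml activin A, 12 ng/ml Fgf2 and 1% knockout serum replacement. Both genotypes, on a 129/Sv//Ev strain background, received this medium, so activin was added in both groups.

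Wild-type (WT) EpiLCs came from the CCE line. Double knockout (DKO) EpiLCs came from 1 clone, KT15.1F6, in which Smad3 had been targeted with a Cas9 nickase in ESCs that already lacked Smad2. Total RNA from 3 separate differentiations per genotype (n = 3 each) was depleted of ribosomal RNA and sequenced. Each genotype was therefore 1 line, and the knockout and any other difference between the lines cannot be told apart. Nothing beyond the separate differentiations was replicated, and p-values measure the spread between these.

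Bmps and activins are dimeric ligands that join a pair of receptor types at the cell surface. Activins and Nodal signal through Smad2 and Smad3, whereas most Bmps signal through Smad1, Smad5 and Smad8. Secreted antagonists such as noggin, chordin and follistatin bind the ligand and cover the surfaces that touch the receptors. In the early embryo such proteins, made in part by the node and its descendants, shape where Bmp and Nodal signals are received. Several are themselves known targets of the pathway that they restrain.

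In these libraries the members spanned a wide range of read counts and, with 1 exception, differed little between the genotypes. Twsg1, Fst, Fstl1 and Bambi held from 491 to 2470 normalized reads in every library, Chrd and Fstl3 from 49.4 to 176, Bmper from 12.5 to 39.4, and Nog and Grem1 under 5. A normalized read count is the number of reads over the gene body, introns included, divided by 1 size factor per library. Bmper rose 2.11-fold in DKO EpiLCs. The other 6 testable members differed by less than 1.5-fold, and the levels of Nog and Grem1 were too low to test.

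**Figure D1:**
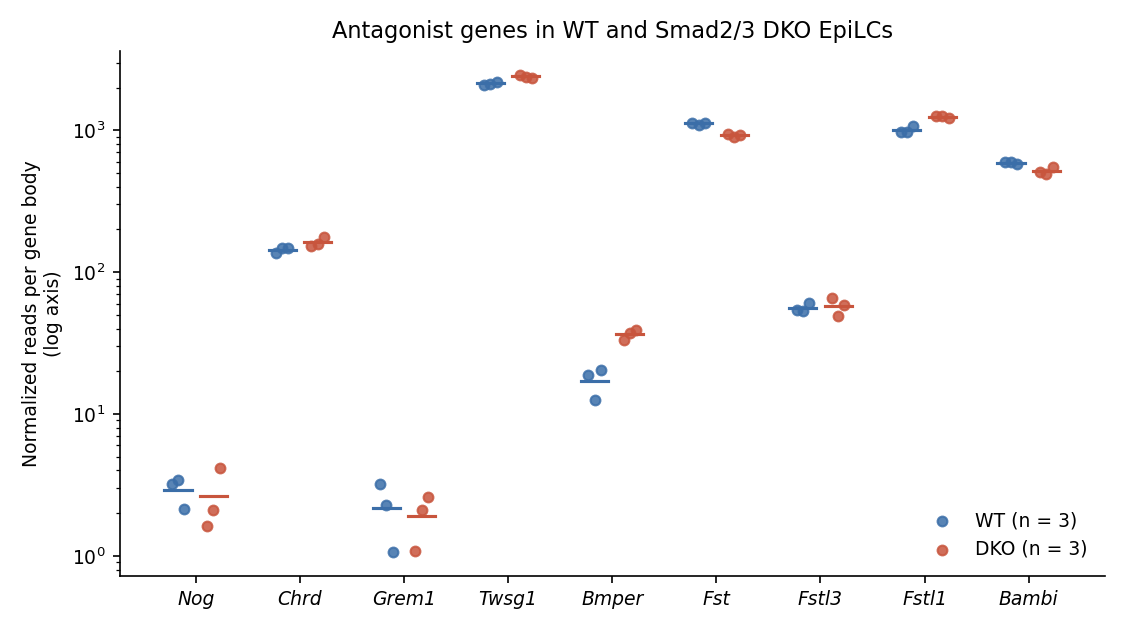
Normalized reads per gene body (vertical log axis) of the 9 antagonist genes in each of 3 WT (blue) and 3 DKO (red) libraries, with points for libraries and a short line for the mean of each group. Bmper stands out with all 3 DKO libraries (33.4 to 39.4) above all 3 WT libraries (12.5 to 20.3), while Fstl3, Nog and Grem1 overlap.

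Before the members, the libraries were checked against their labels. Reads in Smad3 fell from 839 ± 37.0 (SD, n = 3) in WT to 23.6 ± 6.16 in DKO, whereas reads over the Smad2 gene body were not lower in DKO (4520 ± 86.3 against 5062 ± 109), so read counts over the whole gene do not check the Smad2 allele. Reads summed over 1 entry per gene ran from 57644143 to 63046034 per library. The summed level of 7 EpiLC markers lay between 108768 and 112792 in WT and between 105266 and 106799 in DKO, and all 7 were detected. Most of this sum came from Dnmt3b and Pou5f1, and 3 of the 7 were changed, Fgf5 (log2 fold change -2.02) and Pou3f1 (-0.62) lower and Sox2 (1.47) higher, the last lying wholly within Sox2ot on the same strand. Among lists that mark other cells, summed levels moved with genotype for trophoblast markers (69.4 to 91.7 in WT, 278 to 324 in DKO), of which 5 of 6 were higher (Gata3, Tfap2a, Hand1, Cdx2 and Krt7), and for primitive streak markers (88.8 to 94.4 in WT, 30.1 to 48.9 in DKO), of which 3 of 4 were lower (T, Mixl1 and Tbx6). Fibroblast markers summed to 1626 to 1699 in WT and 526 to 572 in DKO. Of the 10 genes 2 fell, Dcn (log2 fold change -2.14) and Col1a2 (-1.07), 4 were tested and not changed, and 4 had too few reads to test, among them Prrx1 and Postn with at most 3 reads in every library. Without Dcn and Col1a2 the remaining 8 summed to 142 to 161 in WT and 147 to 177 in DKO, so that the genotypes overlapped. Extra-embryonic endoderm markers summed to 245 to 272 in WT and 214 to 252 in DKO, with 1 of 7 higher (Gata6). Node markers summed to 126 to 162 in WT and 183 to 233 in DKO, with 1 of 6 higher (Foxj1). Neural markers summed to 299 to 303 in WT and 308 to 353 in DKO. Of the 5 neural markers 1 was higher (Pax6) and 2 were lower (Sox1 and Pax3). The node and neural sums thus did not overlap between the genotypes either. The part of such cells in the results on the antagonists was not tested. In bulk RNA, fewer cells that express a gene and less RNA per cell cannot be told apart.

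Each gene was compared between the genotypes with limma on log2(normalized reads + 1), over 17038 genes that passed a filter on low reads, with Benjamini-Hochberg adjustment over all of them. A gene was counted as changed when its adjusted p was under 0.05 and its fold change exceeded 1.5. By this rule 15.4% of the genes tested were changed, 7.35% higher and 8.04% lower in DKO. Of the 9 members 7 could be tested and 1 was changed, which is close to that background. Adjusted p under 0.05 at any fold was reached by 5 of the 7 members, against 53.4% of all genes tested. Of these 5, 3 were higher (26.9% of all genes) and 2 were lower (26.5% of all genes). The values of the 2 genotypes did not overlap in 6 of the 7, against 59.0% of all genes. The median log2 fold change of the 7 was 0.16, against 0.00 over all genes, and their median absolute log2 fold change was 0.20, against 0.19. By size, the members' differences were thus close to those of the genes at large. For 6 of the 7 the 95% interval lay wholly within the 1.5-fold limits, as it did for 64.7% of all genes.

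**Figure D2:**
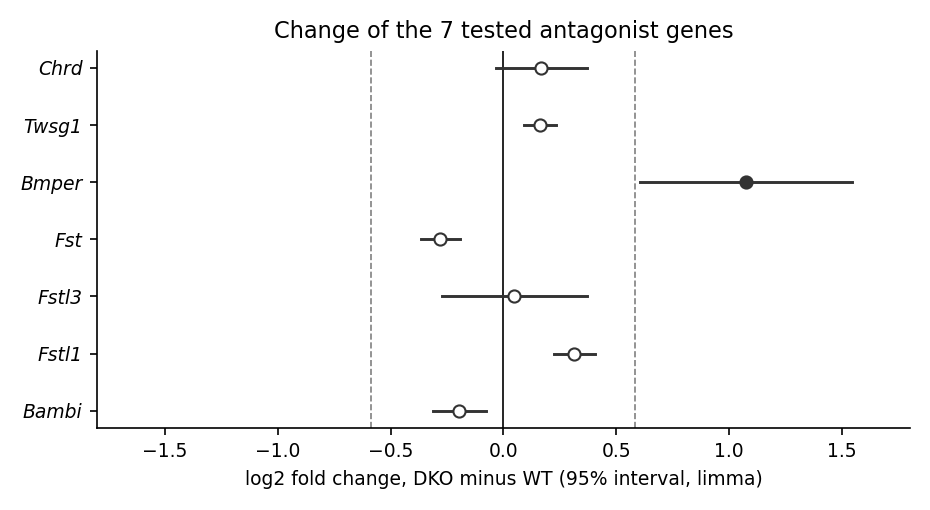
Log2 fold change (DKO minus WT, horizontal axis) of the 7 tested antagonist genes with its 95% interval from limma. The dashed lines mark a 1.5-fold change, filled points mark changed genes, and Bmper at 1.07 is the 1 filled point.

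Bmper (crossveinless-2) encodes a secreted protein with chordin-like repeats that binds Bmps and can hinder or aid their signals depending on context. The gene (NM_028472) lies on chromosome 9, 23223076 to 23485200 (mm10, forward strand), with 15 exons over a 262-kb body. It held 18.8, 12.5 and 20.3 normalized reads in the WT libraries, from 35, 22 and 38 reads. In DKO it held 33.4, 37.3 and 39.4, from 62, 71 and 76 reads. All 3 DKO libraries lay above all 3 WT libraries. The mean rose from 17.2 ± 4.12 to 36.7 ± 3.06, a difference of 1.07 ± 0.23 (log2, SE; 95% interval 0.60 to 1.55; limma, adjusted p = 0.000285). Among the 17038 genes tested, 1037 (6.09%) had an absolute log2 fold change at least as large. The interval began just above the 1.5-fold limit, and in a test against a fold of 1.5 itself the adjusted p was 0.260. Bmper had the lowest level of the members per length of gene body, 0.0656 ± 0.0157 normalized reads per kb in WT and 0.140 ± 0.0117 in DKO.

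Bmper, Fstl1 and Twsg1 were the 3 members that were higher in DKO at adjusted p under 0.05. The 300 bases around the starts of these 3 genes are printed to show what they hold in common, from 250 bases before to 50 after the start that RefSeq gives in GRCm38.p6 (the mm10 assembly), on the strand of the gene. The windows are chr9:23222826-23223125 for Bmper, chr16:37776805-37777104 for Fstl1 and chr17:65951138-65951437 (reverse strand) for Twsg1. For Fstl1 and Twsg1 the RefSeq start used here differs from the gene position given below, which is from GENCODE. Capitals mark CAGAC or its reverse complement GTCTG, the short Smad-binding element, and GGCGCC, a palindromic GC-rich motif bound by Smads. Both strands were searched.
Bmper: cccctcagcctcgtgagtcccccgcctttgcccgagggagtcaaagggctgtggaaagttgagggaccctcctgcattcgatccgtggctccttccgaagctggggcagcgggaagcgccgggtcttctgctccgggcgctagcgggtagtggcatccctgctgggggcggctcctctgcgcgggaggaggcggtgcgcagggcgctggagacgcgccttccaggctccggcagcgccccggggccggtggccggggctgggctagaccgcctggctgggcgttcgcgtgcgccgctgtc
Fstl1: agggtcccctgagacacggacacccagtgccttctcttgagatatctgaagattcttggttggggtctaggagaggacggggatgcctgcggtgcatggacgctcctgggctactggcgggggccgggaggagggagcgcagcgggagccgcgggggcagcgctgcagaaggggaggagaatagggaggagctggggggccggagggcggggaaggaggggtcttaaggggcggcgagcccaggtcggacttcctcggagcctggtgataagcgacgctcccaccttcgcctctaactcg
Twsg1: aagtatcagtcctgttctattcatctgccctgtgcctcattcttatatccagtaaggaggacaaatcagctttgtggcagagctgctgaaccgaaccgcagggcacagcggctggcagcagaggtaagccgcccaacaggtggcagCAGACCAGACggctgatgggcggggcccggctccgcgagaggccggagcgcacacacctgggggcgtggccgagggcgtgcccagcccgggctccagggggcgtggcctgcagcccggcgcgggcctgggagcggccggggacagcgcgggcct
The Twsg1 window held 2 copies of CAGAC, next to each other, at 104 and 99 bases before the start, and the windows of Bmper and Fstl1 held none. No copy of GGCGCC was found in the 3. CAGAC occurs on either strand in 49.6% and GGCGCC in 11.9% of 32851 promoter windows of the same length. GC made up 72.7% of the Bmper window, 66.7% of the Fstl1 window and 68.0% of the Twsg1 window, against a median of 52.7% over all windows. Windows were also searched for Chrd, Fstl3 and Grem1, and none was used for Nog, Fst and Bambi. CAGAC was found in the windows of Chrd, Fstl3 and Grem1, and GGCGCC in those of Chrd and Grem1. GC made up 78.3% of the Chrd window and 70.7% of the Fstl3 and Grem1 windows. High GC was thus not particular to the 3 printed genes. These are matches of letters, and no binding was measured here.

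Fstl1 encodes a secreted, divergent member of the follistatin family (NM_008047, chromosome 16, 37776873 to 37836514, forward strand). It held 973, 979 and 1069 normalized reads in WT and 1267, 1258 and 1228 in DKO. The 2 groups did not overlap. The mean went from 1007 ± 53.6 to 1251 ± 20.0, a difference of 0.31 ± 0.04 (log2; 95% interval 0.22 to 0.40; limma, adjusted p = 9.97e-07), which is higher in DKO but under the 1.5-fold limit.

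Twsg1 (twisted gastrulation), whose product binds Bmps together with chordin and makes chordin easier to cleave, had the most reads of the members. The gene (NM_023053, chromosome 17, 65923065 to 65951226, reverse strand) held 2082, 2134 and 2203 normalized reads in WT and 2470, 2385 and 2333 in DKO. The groups lay close together without overlapping. The mean was 2140 ± 61.0 in WT and 2396 ± 69.2 in DKO, with a log2 fold change of 0.16 ± 0.03 (95% interval 0.09 to 0.23; limma, adjusted p = 0.000268).

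Chrd encodes chordin, which binds Bmps until astacin-like proteases cut it. The gene (NM_001278041, chromosome 16, 20733129 to 20742121, forward strand) held 135, 149 and 148 normalized reads in WT and 153, 158 and 176 in DKO. Every DKO value was above every WT value, but the nearest were 149 and 153. With means of 144 ± 7.52 and 162 ± 12.1 the log2 fold change was 0.17 ± 0.10 (95% interval -0.03 to 0.37; limma, adjusted p = 0.154), so a difference between the genotypes did not pass the test. The interval leaves room for a Chrd level in DKO up to 0.37 higher on the log2 scale, short of the 1.5-fold limit. Without DKO replicate 3 the log2 fold change was 0.11. Thpo, on the opposite strand, covers 15.4% of the Chrd body and held 19.4 ± 2.47 normalized reads in WT and 18.4 ± 1.78 in DKO.

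Nog and Grem1 are Bmp antagonists that bind their ligands directly, noggin as a cystine-knot protein made by the node and notochord and gremlin 1 as a member of the Dan family. Nog (NM_008711, chromosome 11, 89300638 to 89302332, reverse strand), a gene of 1 exon, held 6, 6 and 4 reads in WT and 3, 4 and 8 in DKO. Grem1 (NM_011824, chromosome 2, 113746164 to 113758646, reverse strand) held 6, 4 and 2 reads in WT and 2, 4 and 5 in DKO. The 2 genotypes overlapped in both genes. Neither passed the filter on low reads and no fold is given, since a difference was not detectable at this depth. At such counts steps of 2 reads were common, as 70.8% to 74.1% of the entries with 1 to 10 reads in a library held an even number.

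Follistatin, the product of Fst, wraps around activin and is also able to bind some Bmps. Fst (NM_001301373, chromosome 13, 114452970 to 114458949, reverse strand) held 1123, 1097 and 1132 normalized reads in WT and 935, 901 and 924 in DKO. The 3 DKO libraries all lay below the 3 WT libraries, with little spread in either group. The mean was 1117 ± 18.0 in WT and 920 ± 17.2 in DKO, a difference of -0.28 ± 0.04 (log2; 95% interval -0.37 to -0.19; limma, adjusted p = 3.14e-06). Fst was thus the member with the lowest log2 fold change, and it too stayed within the 1.5-fold limits. An antisense gene, Gm47040, overlaps 4.80% of its body.

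Fstl3, which encodes a follistatin-like protein that binds activins and myostatin, did not pass the test. The gene (NM_031380, chromosome 10, 79777272 to 79782630, forward strand) held 53.7, 53.5 and 60.3 normalized reads in WT and 66.2, 49.4 and 58.6 in DKO. The DKO libraries lay on both sides of the WT libraries. Means of 55.8 ± 3.85 and 58.0 ± 8.42 gave a log2 fold change of 0.05 ± 0.16 (95% interval -0.27 to 0.37; limma, adjusted p = 0.818). Its sign turned when 1 library, DKO replicate 1, was left out (-0.051). Prss57, on the other strand, covers 21.6% of the body and held 0.535 ± 0.533 normalized reads in WT and 0.897 ± 1.55 in DKO.

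Bambi differs from the rest in that it encodes a membrane protein, a receptor-like decoy with no kinase domain that takes the place of a working receptor. It is thus no extracellular antagonist in the strict sense. The gene (NM_026505, chromosome 18, 3507923 to 3516404, forward strand) held 598, 600 and 575 normalized reads in WT and 506, 491 and 554 in DKO. The highest DKO value lay below the lowest WT value. The mean was 591 ± 13.9 in WT and 517 ± 32.9 in DKO, with a log2 fold change of -0.20 ± 0.06 (95% interval -0.31 to -0.08; limma, adjusted p = 0.00527).

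**Figure D3:**
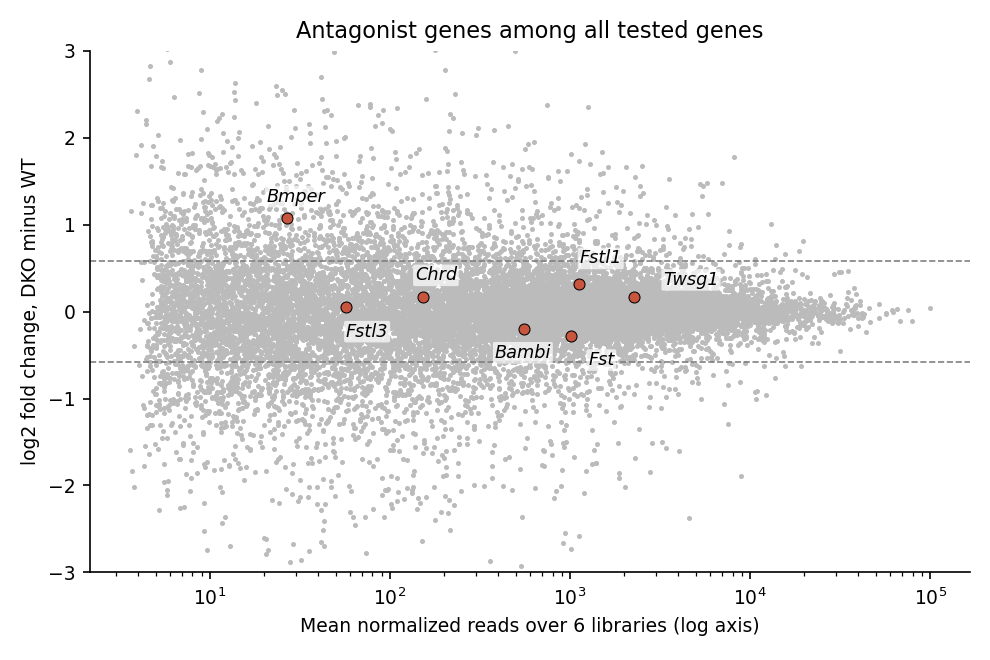
Log2 fold change (DKO minus WT) against mean normalized reads over the 6 libraries (log axis) for all 17038 genes tested (grey) and the 7 tested antagonist genes (red). The dashed lines mark a 1.5-fold change, 60 genes lie beyond the vertical range of 3, and 6 of the 7 antagonist genes lie between the dashed lines.

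To compare the members with each other, reads were divided by length. Since reads were counted over gene bodies, the level per kb of gene body is given first. In WT the order was Fst (187 ± 3.00 normalized reads per kb, n = 3), Twsg1 (76.0 ± 2.17), Bambi (69.7 ± 1.63), Fstl1 (16.9 ± 0.899), Chrd (16.0 ± 0.836), Fstl3 (10.4 ± 0.718), Nog (1.72 ± 0.408), Grem1 (0.175 ± 0.0866) and Bmper. Fstl1 and Chrd overlapped between libraries, and no other neighbours in this order did. The median gene tested stood at 27.0 normalized reads per kb of gene body in WT. Fst, Twsg1 and Bambi were above it, at percentiles 80.8, 66.1 and 64.7 of the genes tested, and the remaining 6 members were below. Nog stood at percentile 17.9, Grem1 at 3.52 and Bmper at 1.25.

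In DKO the order was the same, from Fst at 154 ± 2.88 and Twsg1 at 85.1 ± 2.46 normalized reads per kb of gene body to Grem1 at 0.154 ± 0.0619 and Bmper, but now Grem1 and Bmper were the neighbours that overlapped. The order depended on the length used. Divided by exon length, with the reads of introns still counted, the WT levels were 604 for Fst, 524 for Twsg1, 266 for Fstl1, 117 for Bambi, 46.8 for Chrd, 28.6 for Fstl3, 4.54 for Bmper, 1.72 for Nog and 0.528 for Grem1. Bmper, with long introns, moved up past Nog and Grem1, and Fstl1 moved past Bambi. Per kb of exon Twsg1 (586 ± 16.9) stood above Fst (497 ± 9.29) in DKO, where in WT Fst stood above Twsg1. On either scale Fst and Twsg1 held the highest levels of the members in both genotypes. Summed over the 9 members, normalized reads were 4991 to 5211 in WT and 5284 to 5433 in DKO, and Twsg1 gave the most of these reads.

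**Figure D4:**
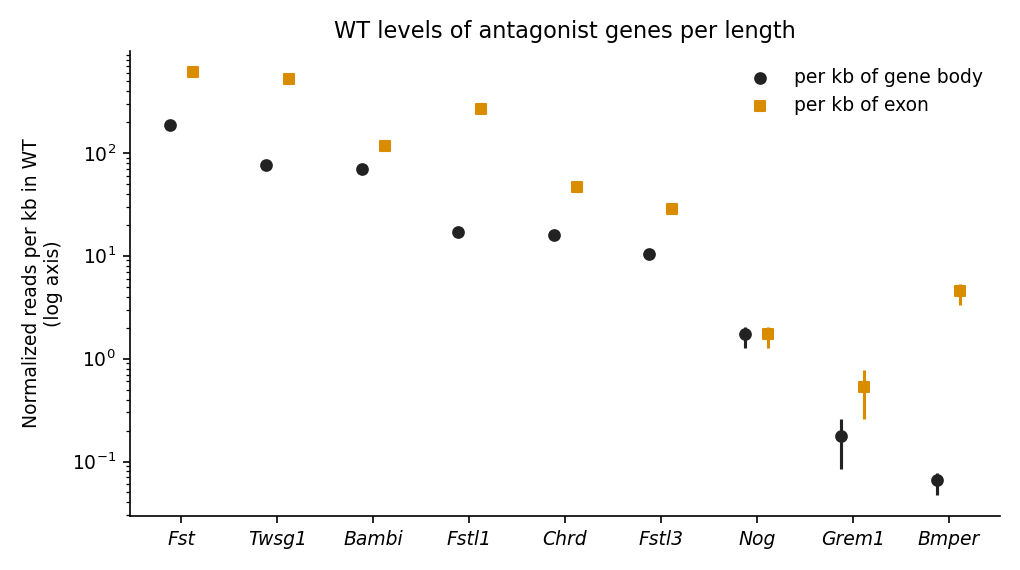
Level of each antagonist gene in WT as normalized reads per kb (vertical log axis), divided by the length of the gene body (black circles) or of the exons (orange squares), as means with lines from the lowest to the highest of 3 libraries. Fst is highest on both scales, at 187 and 604, and Bmper is lowest per kb of gene body at 0.0656 but above Nog and Grem1 per kb of exon.

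A further 19 genes for antagonists of Bmp, activin, Nodal or related signals were read from the same fit, which are not all of the known ones. Of these 14 could be tested and 3 were changed, lower in DKO, as were 8.04% of all genes tested. Adjusted p under 0.05 at any fold was reached by 4, against 53.4% of all genes, and the 4 were lower. The median log2 fold change of the 14 was -0.15. Lefty1 and Lefty2, which encode inhibitors of Nodal and are known targets of Nodal signals, had the largest differences. Lefty1 fell from 14273 normalized reads (13992 to 14480 by library) in WT to 94.9 (84.6 to 104) in DKO, a difference of -7.22 ± 0.05 (log2). Lefty2 fell from 4852 (4785 to 4915) to 32.1 (25.3 to 36.8), a difference of -7.21 ± 0.09 (log2). The study itself names both as lowered in these libraries, so they are not independent evidence. Beside them, follistatin at -0.28 stands as the member that was lowered most.

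Tmeff2, a membrane protein with follistatin-like domains, fell from 135, 138 and 142 to 105, 74.6 and 80.9, a difference of -0.68 ± 0.12 (log2; limma, adjusted p = 4.96e-05). The other 11 tested antagonists were not changed, and 5 had too few reads to test. Among the 11, Crim1 stood at -0.29 ± 0.05 (log2; limma, adjusted p = 8.25e-05), under the 1.5-fold limit.

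The 3 proteases of the tolloid family, of which Bmp1 and Tll1 are known to cut chordin, were all changed, though not in the same direction. The share changed among all genes tested was 15.4%, with 7.35% higher and 8.04% lower. Tll1 (tolloid-like 1) held 305, 337 and 281 normalized reads in WT and 117, 100 and 85.5 in DKO. It fell by 1.60 ± 0.11 on the log2 scale (limma, adjusted p = 1.04e-12), with no overlap. Bmp1, which is a protease of the same family and no Bmp ligand, rose from 49.4, 58.0 and 42.7 to 79.6, 91.4 and 93.3, a difference of 0.81 ± 0.15 (log2; limma, adjusted p = 4.71e-05). Tll2 (tolloid-like 2) held 28.5, 19.3 and 33.1 in WT and 19.9, 13.7 and 14.0 in DKO, so that the groups overlapped at 19.3 and 19.9. It was lower by the test, at -0.72 ± 0.26 on the log2 scale (limma, adjusted p = 0.0209).

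Of 14 ligands that these antagonists bind, 12 could be tested and 3 were changed, and each of the 3 was lower in DKO. Of all genes tested, 15.4% were changed, 8.04% being lower. At adjusted p under 0.05 and any fold 5 of the 12 differed, 3 lower and 2 higher. The share over all genes tested was 53.4%. The median over the 12 was -0.15 on the log2 scale. Summed over the 14, normalized reads were 765 to 798 in WT and 828 to 852 in DKO. Bmp4 held 105, 110 and 123 normalized reads in WT and 70.0, 60.9 and 66.9 in DKO (log2 fold change -0.77 ± 0.13; limma, adjusted p = 1.16e-05). An antisense gene, Gm15222, overlaps 24.7% of the Bmp4 body. Bmp6 held 70.4, 66.0 and 67.2 in WT and 41.4, 42.0 and 39.4 in DKO (log2 fold change -0.72 ± 0.15; limma, adjusted p = 0.000287). Gdf6 fell from 12.4, 11.4 and 10.7 to 8.61, 3.15 and 4.15 (log2 fold change -1.08 ± 0.38; limma, adjusted p = 0.0198). The 2 that were higher without reaching 1.5-fold, named after their values were seen, were Gdf11 (0.52 ± 0.08 on the log2 scale; limma, adjusted p = 2.09e-06) and Bmp8a (0.47 ± 0.11; limma, adjusted p = 0.000672). In neither did the genotypes overlap, which held for 59.0% of all genes tested. Mstn, which encodes myostatin, had 0 reads in every library, which allows up to 3 reads per library. Inhba, the gene for the activin A subunit, had too few reads to test, at 2 to 8 reads per library. Inhbb, the gene for the activin B subunit, stood at 0.86 ± 0.38 on the log2 scale and did not pass (limma, adjusted p = 0.0616). Its genotypes did not overlap, at 8 to 28 reads per library. Activin A was supplied in the medium.

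**Figure D5:**
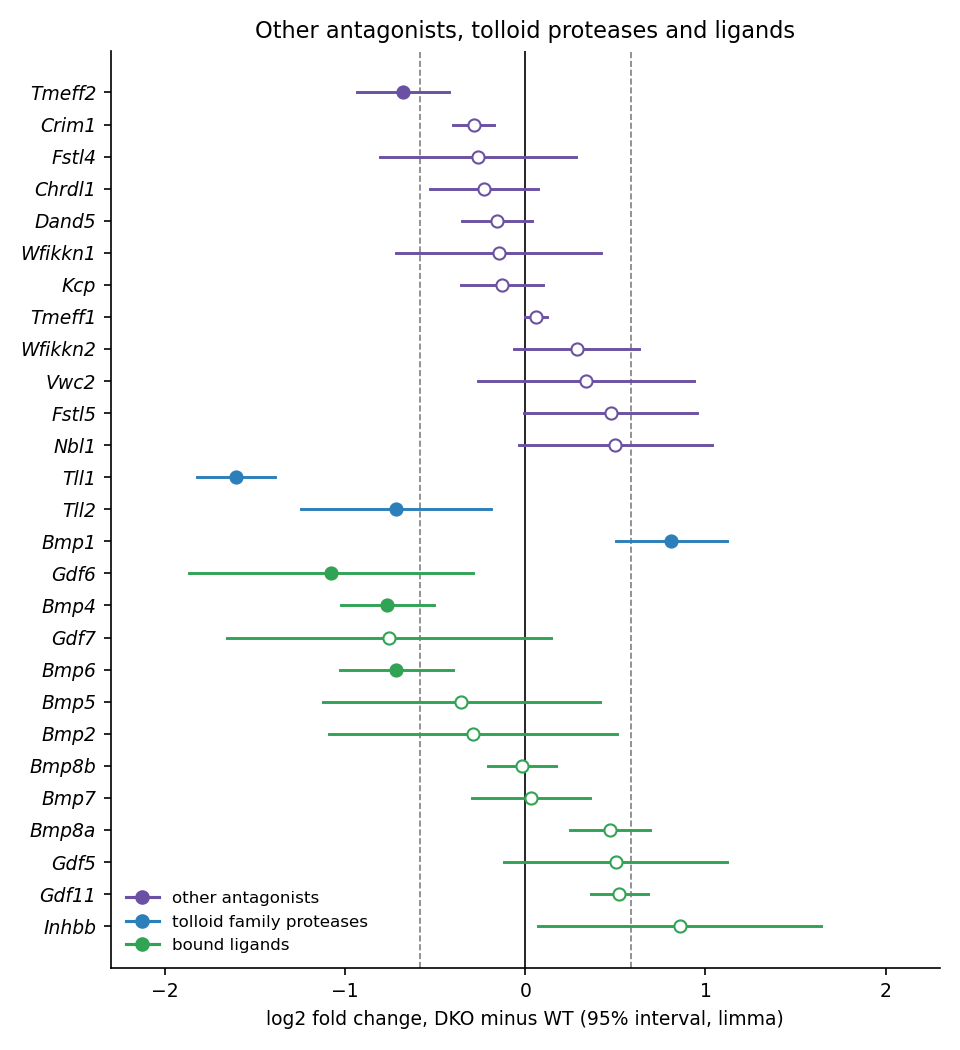
Log2 fold change (DKO minus WT, horizontal axis) with its 95% interval from limma for the tested antagonists outside the 9 members (purple), the tolloid family proteases (blue) and the bound ligands (green). Dashed lines mark a 1.5-fold change and filled points mark changed genes, with Lefty1 (-7.22) and Lefty2 (-7.21) left out for scale, so that Tll1 at -1.60 is farthest to the left.

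Genes known to respond to Bmp signals were read from the same fit. Of 8 such genes 7 could be tested and 6 were changed, 5 higher and 1 lower, with a median log2 fold change of 2.14. Over all genes tested, 15.4% were changed, 7.35% higher and 8.04% lower. Id1 rose from 46.2, 52.4 and 46.9 normalized reads in WT to 4738, 4560 and 4185 in DKO, a difference of 6.51 ± 0.06 (log2). Id3 (4.42 ± 0.06), Id2 (2.35 ± 0.05), Msx2 (2.14 ± 0.27) and Msx1 (0.95 ± 0.11) rose as well, and Smad7, an inhibitory Smad, fell by 2.09 ± 0.05 on the log2 scale. Smad6, also an inhibitory Smad, was higher at 0.56 ± 0.08 (log2; limma, adjusted p = 2.26e-06) but under the 1.5-fold limit. The Id genes are ones that the study names from these libraries, so their direction is not independent evidence. Bambi, known elsewhere as a gene that Bmp signals can induce, stood at -0.20 ± 0.06 (log2). How its level relates to that of these genes was not tested.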

How the data were processed

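Total RNA of 3 WT and 3 DKO day 2 EpiLC samples was sequenced on stranded, ribosome-depleted libraries. According to the study's methods, ribosomal reads were removed with Bowtie2, the rest were aligned to mm10 with STAR, duplicates were removed with SAMtools, and reads were counted over refGene gene bodies. Software versions and whether counting used strand are not given in the sources used here. The authors' deposited table holds a signal per entry, which is the read count divided by 1 size factor per library and is not scaled for length. The authors' comparison table (mean signal, fold changes, score and p-values from DESeq2) was not used.

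All values were whole multiples of 1 read (100% within 0.02 reads), and reads were recovered with size factors of 1.76 to 1.93. Rows without a symbol (138 of 33812, 0.517% of reads) were left out. The main test was limma 3.58.1 (R 4.3.3) with a variance trend on log2(value + 1) after filterByExpr of edgeR 4.0.16, with DESeq2 1.42.0 and edgeR as alternatives. Such fold changes understate those of low genes. A floor of 3 reads per library was used, which like the intervals covers counting and replicate spread only. No pair of libraries in a group looked like 1 library deposited again (3.44 to 5.64 times the sampling variance). Positions and overlaps are from GENCODE vM21 and promoter windows from RefSeq, which held 6 members that could be used. The members, gene lists, tests and thresholds were chosen with earlier results of these data known. Named are all 9 members and, of each other list, the changed genes (at most 6, by size of change), together with ligands, antagonists and proteases at the floor in all libraries. Other genes were named after their values were seen. A gene of the list of further antagonists is not reported here, and the counts of that list leave it out, so its split by direction is incomplete.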

Additional observations from a re-analysis of the deposited data

How the results depend on the processing

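The count of changed genes was 2623 and stayed within 1.5 times of that under 14 of 15 alternatives, which were edgeR (2638), DESeq2 (2475), limma with TMM factors (2613), pseudocounts of 0.1 (2626) and 10 (2096), no filter (2867), all entries in place of 1 per gene (3904 of 25361), the replicate block (2602) and leaving out each library (2529 to 2610). A test against a fold of 1.5 itself left 1115 genes and 0 members, and Bmper did not pass it (adjusted p = 0.260). Under the 14 others 1 member was changed, as reported, also in each fit without 1 library (1 to 1). The log2 fold change of Bmper ran from 0.79 (pseudocount 10) to 1.20, and from 0.87 to 1.20 when a library was left out. Fstl3 ran from -0.051, its sign turned, without DKO replicate 1 (adjusted p = 0.832) to 0.16 without DKO replicate 2, and the other 6 tested members kept their sign under all 15. Replicate numbers did not pair the libraries (correlations of 0.00881, -0.0293 and 0.0365 over 11930 genes; 2 of 6 libraries correlated best with their own number), and the block gave 2602 genes and 1 member. Other entries of Chrd and Fst hold the same values, so that alternative gave none. Depth limits Nog and Grem1.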

Other observations

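Co-receptors for Bmps, Nodal or related ligands were looked at after the data had been seen. All 7 genes of that list were tested and 3 were changed, against 15.4% of all genes tested. Tdgf1 (Cripto, a co-receptor for Nodal) fell from 13622, 14058 and 13998 normalized reads in WT to 7381, 7212 and 7304 in DKO, a difference of -0.93 ± 0.02 (log2; limma, adjusted p = 2.35e-21). Its relative Cfc1 (Cryptic) rose from 4.84, 10.8 and 4.27 to 16.7, 21.0 and 23.8, a difference of 1.58 ± 0.34 (log2; limma, adjusted p = 0.000298). Eng (endoglin) rose from 535, 458 and 541 to 771, 828 and 822, a difference of 0.66 ± 0.06 (log2; limma, adjusted p = 4.87e-10). In all 3 the genotypes did not overlap, which held for 59.0% of all genes tested. The summed level of the 7 co-receptors was 15018 to 15415 normalized reads in WT and 9013 to 9088 in DKO, mostly from Tdgf1. Among the other 4, Rgma, a co-receptor for Bmps, stood at 0.32 ± 0.07 on the log2 scale (limma, adjusted p = 0.00055), under the 1.5-fold limit.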
